A study of Mus musculus with 10 samples.

Results

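The Hippo pathway controls the transcriptional coactivators YAP and TAZ, and the chromatin around the genes of its core was examined here in mouse fibroblasts. The genes were Lats1, Lats2, Amotl2, Yap1, Wwtr1, which encodes TAZ, and Tead1 to Tead4. All accessible sites in the bodies of these 9 genes and within 100 kb on either side were taken from a list of sites of the mouse genome build mm10. They numbered 294 of the 153682 sites on chromosomes. The outermost site taken in lay 99256 bp from the body of Tead2, and the nearest one left out lay 101020 bp from the body of Amotl2.

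The list came from ATAC-seq, in which the transposase Tn5 cuts accessible DNA and the fragments are sequenced. The cells were an individual clone of immortalized mouse embryo fibroblasts with floxed Ash2l alleles, in which exon 4 had been deleted through Cre-ER and which lived on a lentiviral fusion of FKBP12F36V and human ASH2L. All 5 groups carried the deletion and the transgene, and each had 2 replicates. One group received no dTAG, and the others received dTAG for 30 min, 4 h, 8 h or 24 h. This compound leads to degradation of the fusion protein, and the methods name ethanol as the control treatment. The sites of all 10 libraries were pooled into positions without read counts, so the depth is unknown. No difference between groups and no replicate error could be measured, and each value below describes sites found under any of the conditions. Intervals are 95% Wilson intervals, or order-statistic intervals for medians, and cover the number of sites only. Neighbouring sites share a locus and are not replicates.

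In the Hippo pathway the kinases LATS1 and LATS2 phosphorylate YAP and TAZ, which are then held in the cytoplasm or degraded. Unphosphorylated YAP and TAZ enter the nucleus, where they bind DNA through the TEAD transcription factors and activate genes of growth and of the cytoskeleton. Angiomotin proteins such as AMOTL2 bind YAP and keep it out of the nucleus, and AMOTL2 is itself a known target gene. In fibroblasts the pathway responds to cell density and to the stiffness of the surroundings.

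A promoter sequence of each kinase gene is shown first, because a site was listed at that of Lats2 but not at that of Lats1. Both are RefSeq sequences (GRCm38) from 250 bases before to 50 bases after a start site, given 5′ to 3′ on the gene's strand with each CG dinucleotide in capitals. The Lats1 promoter covers chr10:7680959-7681258 on the plus strand, and the Lats2 promoter shown covers chr14:57746074-57746373 on the minus strand. A further RefSeq promoter of Lats2, chr14:57734369-57734668, is not shown. It was not rich in CpG (GC content 42.7%, CpG ratio 0.293) and had no site within 1 kb.
Lats1: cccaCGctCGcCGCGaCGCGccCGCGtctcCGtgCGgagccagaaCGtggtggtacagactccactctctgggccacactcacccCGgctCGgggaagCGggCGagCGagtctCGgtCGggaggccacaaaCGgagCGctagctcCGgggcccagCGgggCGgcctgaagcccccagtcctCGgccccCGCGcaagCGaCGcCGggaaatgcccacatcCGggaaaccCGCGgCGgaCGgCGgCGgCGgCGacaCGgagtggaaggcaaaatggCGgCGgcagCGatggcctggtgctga
Lats2: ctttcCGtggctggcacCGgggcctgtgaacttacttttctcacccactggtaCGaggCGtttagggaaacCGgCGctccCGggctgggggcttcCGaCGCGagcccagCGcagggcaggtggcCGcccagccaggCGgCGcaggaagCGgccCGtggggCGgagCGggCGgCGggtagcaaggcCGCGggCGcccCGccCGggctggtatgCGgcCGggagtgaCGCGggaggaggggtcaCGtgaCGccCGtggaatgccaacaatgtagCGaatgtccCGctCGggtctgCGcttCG

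Both sequences were rich in CpG. The GC content was 73% at Lats1 and 71.7% at Lats2, and the ratio of observed to expected CpG was 1.05 and 0.978. The Lats2 sequence lay with all 300 bases inside a site, whereas 0 bases of the Lats1 sequence did. As described below, the Lats1 sequence is present more than once in the reference, so its lack of a site is no measure of accessibility. Of 9548 promoters of coding genes with a GC content over 50% and a CpG ratio over 0.6, 96.4% had a site within 1 kb of the start. Among promoters that failed at least 1 of these limits the share was 43.2% of 11715.

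Sites within 1 kb of an annotated start were found at 8 of the 9 genes, and Lats1 was the exception. Its starts lie in the repeated reference sequence described below. Among 21938 protein-coding genes the share was 70.8%. The widest such site of each of the 8 genes was above the median width for all genes with such a site. The widest one measured 2269 bp at Lats2, 2056 bp at both Yap1 and Tead3, 2024 bp at Wwtr1, 1902 bp at Tead1, 1741 bp at Amotl2 and 1635 bp at both Tead2 and Tead4. All 8 were above the median of 1412 bp for the 15530 genes with a promoter site, between percentile 67.9 of these genes for Tead2 and Tead4 and percentile 93.1 for Lats2. Their median was 1963 bp. In lists described below it was 1802 bp for other pathway genes, 1880 bp for known target genes and 1874 bp for fibroblast markers. It was 1244 bp for epithelial, 706 bp for endothelial and 605 bp for pluripotency markers. When only the outermost 5′ end of each gene was counted, 7 of the 9 genes kept a site, because the outermost end of Lats2 lay 1364 bp from the nearest one.

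**Figure D1:**
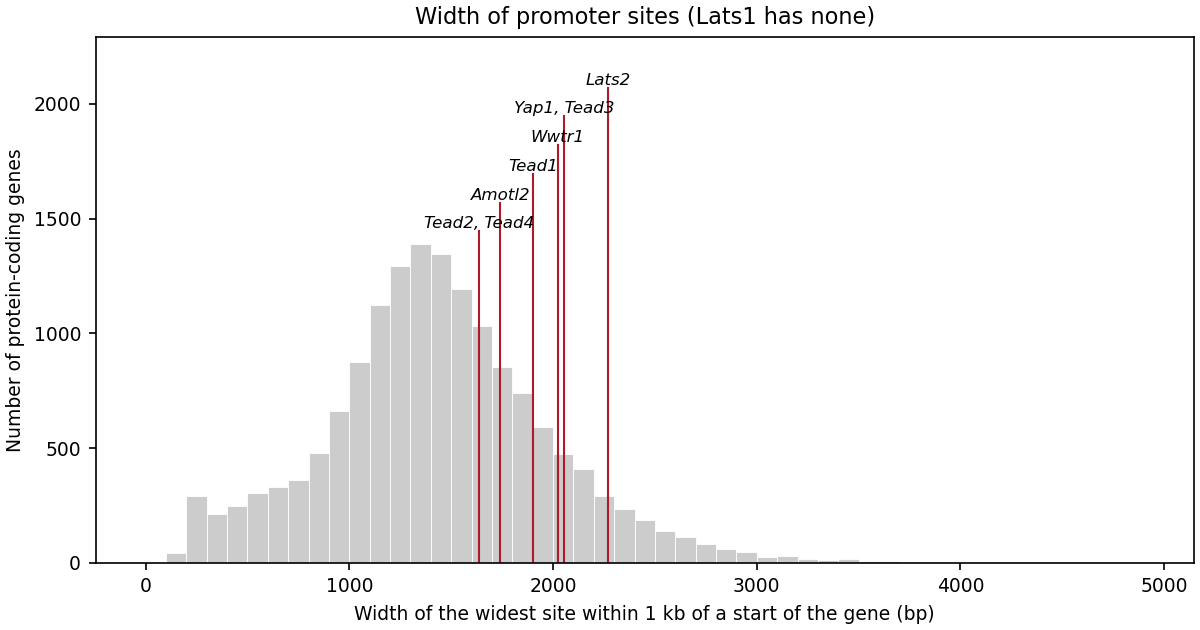
The plot shows the number of protein-coding genes (vertical axis) by the width in bp of their widest site within 1 kb of a start (horizontal axis, bins of 100 bp). Red lines mark 8 of the 9 genes, from 1635 bp at Tead2 and Tead4 to 2269 bp at Lats2, all to the right of the median of 1412 bp.

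The number of sites in the window differed widely between the genes. Tead1 had 60 sites, Wwtr1 41, Tead3, Tead4 and Amotl2 37 each, Lats2 29, Yap1 26, Tead2 23 and Lats1 4. The median over all protein-coding genes was 20. Because the windows differ in length, the density per 100 kb was compared. It was highest at Amotl2 (17.1) and Tead3 (16.9), at percentiles 96.9 and 96.7 of protein-coding genes, followed by Tead1 (14.0), Tead4 (13.4) and Wwtr1 (12.8). Lats2 (10.8), Tead2 (10.6) and Yap1 (9.54) lay closer to the median of 8.48, and Lats1 (1.70) lay at percentile 12.1. For the reason given below, the value of Lats1 is no measure of accessibility.

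**Figure D2:**
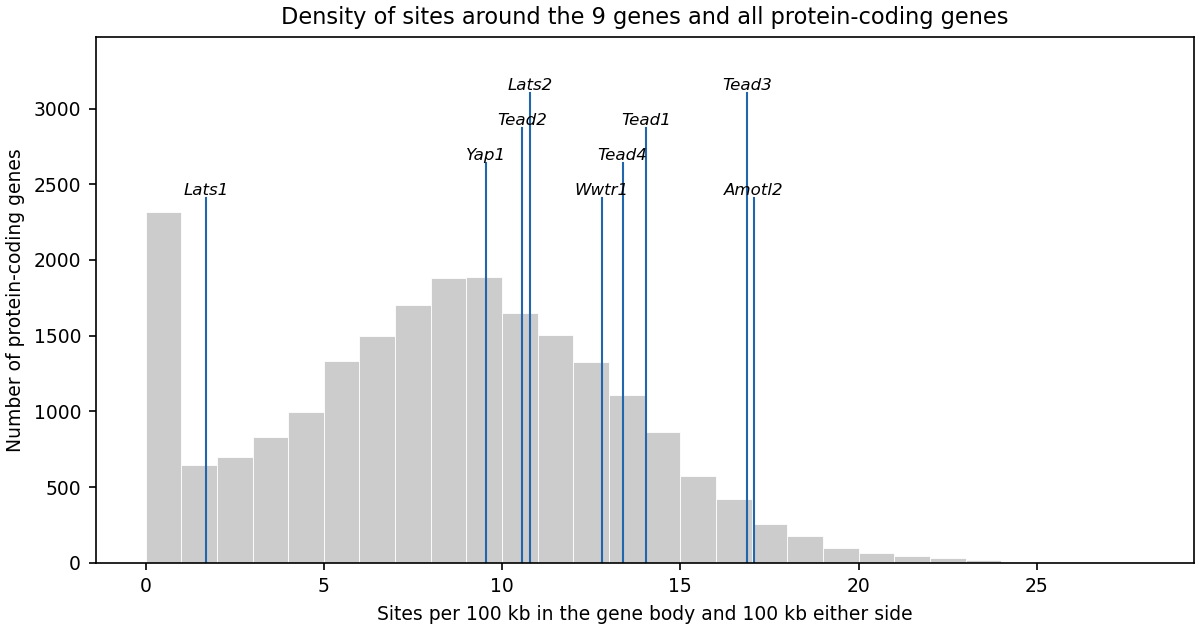
The plot shows the number of protein-coding genes (vertical axis) by the number of sites per 100 kb in the body and 100 kb either side (horizontal axis, bins of 1). Blue lines mark the 9 genes. Lats1 stands alone on the left at 1.70, and Tead3 and Amotl2 lie in the right tail at 16.9 and 17.1.

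The 294 sites comprised 14 within 1 kb of a start of one of the 9 genes, 56 within 1 kb of a start of another gene only, and 224 distal sites farther than 1 kb from any start. Gene bodies held 109 sites. Sites within 1 kb of any start were counted as promoter sites. Only the other sites were placed by their middle in exons, in introns or outside genes. Non-promoter sites in introns of any gene made up 48.0% of the sites (interval 42.3 to 53.7) against 41.0% of all sites on chromosomes. Non-promoter sites outside genes made up 23.8% (19.3 to 29.0) against 38.6%. Promoter sites made up 23.8% against 17.2% over the genome. These windows were centred on genes, whereas the whole list also covers regions far from genes. The median width was 642 bp (570 to 724) against 619 bp, with 589 bp for distal sites (517 to 670) against 565 bp.

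**Figure D3:**
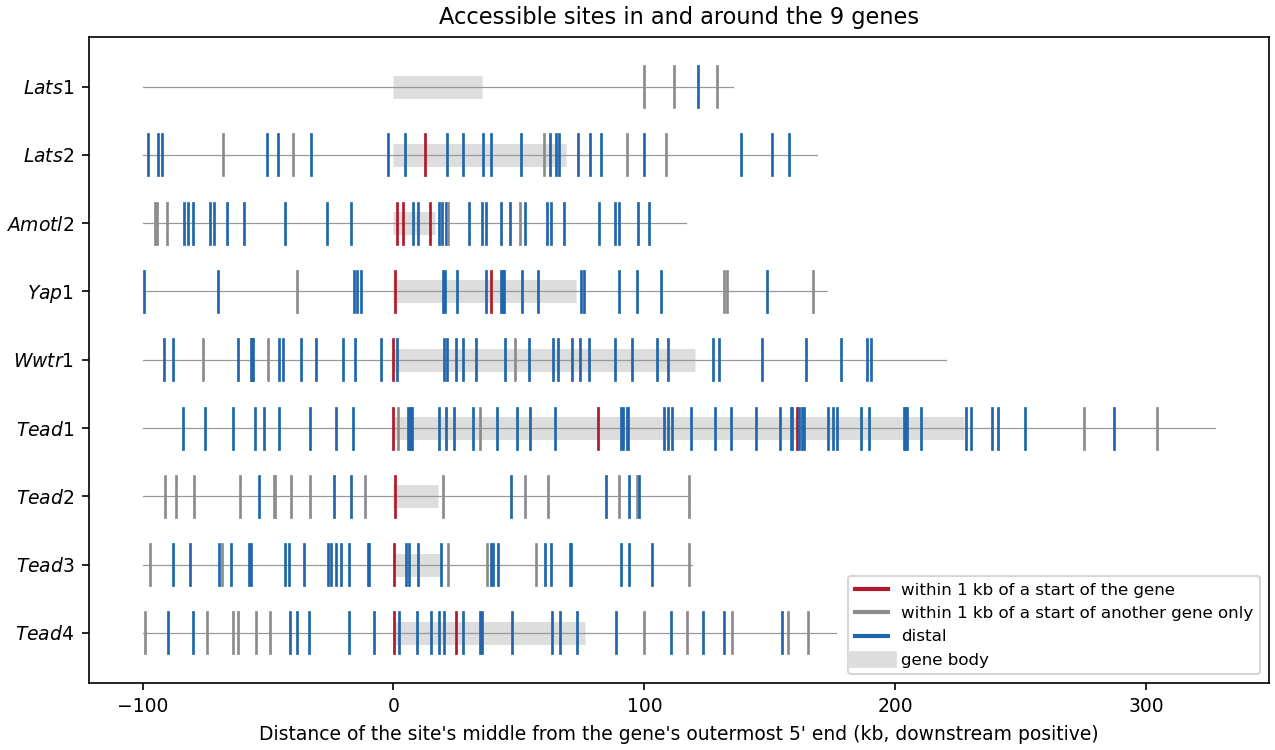
The map shows each site as a line at the distance of its middle from the outermost 5′ end of the gene (horizontal axis, kb, downstream positive), with 1 row per gene. Grey bars are gene bodies, and red lines mark sites within 1 kb of the gene's own starts. Tead1 shows 43 sites along its body, Tead2 shows 1, and the row of Lats1 is empty up to 4 sites near its right end.

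Of the kinase genes, Lats2 (chr14:57689662-57758388, minus strand) had 11 sites in its body of 68.7 kb, where the median for coding genes of similar length was 5. Its promoter site at chr14:57744547-57746815 covered 5 of the 8 annotated starts, the principal one included. The widest distal site of the locus measured 1738 bp in intron 2, at chr14:57706844-57708581. A distal site of 1563 bp lay upstream of the gene at chr14:57759752-57761314.

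Lats1 (chr10:7681214-7716460, plus strand) had 0 sites in its body of 35.2 kb. The nearest site to its 5′ end lay 99053 bp downstream, at chr10:7780267-7781589, close to the starts of Ginm1 and B430219N15Rik. The widest distal site in its window measured 654 bp, at chr10:7802401-7803054. Upstream of Lats1 the next site ended at position 7333954, so that 446312 bp in a row held none. This stretch contained 6 protein-coding genes, Ulbp1, Lrp11, Pcmt1, Nup43, Lats1 and Katna1, with 28 annotated starts, and of 153661 gaps between neighbouring sites 308 were longer. RefSeq promoters rich in CpG in this stretch belonged to Lats1, Lrp11 and Pcmt1, and 0 of them had a site.

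The sequence of the stretch is present more than once in the reference. The methods name GRCm38.p6, which adds further sequences, called patches, to the chromosomes. One patch for chromosome 10 aligned to chr10:7346541-7501777 with an identity of 100.00% and to chr10:7576792-7776389 with 99.94%. Together these blocks covered 95.7% of the sequenced bases of the stretch and 100% of the body of Lats1, including both of its annotated starts. A further 75581 bases of the stretch were unsequenced. Over the genome, the chromosome sequence with such a copy (identity of at least 99%, blocks of at least 1000 bp) came to 17.9 Mb and held 6 sites, or 0.335 per Mb, against 56.8 per Mb elsewhere. Of 208 protein-coding genes whose starts all lay in copied sequence, 0 had a promoter site, against 71.5% of the other 21730. For promoters rich in CpG the counts were 0 of 89 inside copied sequence and 97.3% of 9459 outside. Reads from copied sequence match more than 1 place and are commonly removed by filters on mapping quality. The 242 sites listed on scaffolds and patches could not be matched to these sequences, so any site on the patch copy of Lats1 was not analysed here. At Lats1, closed chromatin and reads that could not be placed cannot be told apart in this list, and its values are therefore no measure of accessibility. The windows of the other 8 genes held 0% copied sequence, and all 8 had a promoter site.

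**Figure D4:**
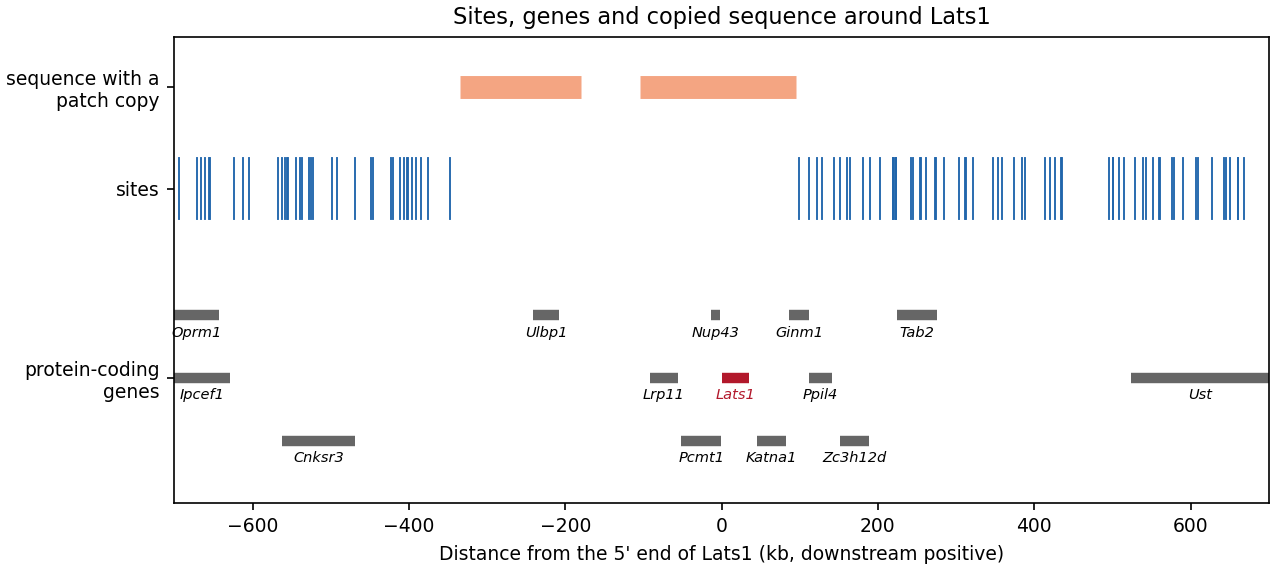
The map shows the surroundings of Lats1 by distance from its 5′ end (horizontal axis, kb, downstream positive). Orange bars are chromosome sequence with a near-identical patch copy, blue lines are sites and the bars below are protein-coding genes, with Lats1 in red. No blue line falls within the stretch of 446312 bp around Lats1, and both orange bars lie inside it.

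Amotl2 (chr9:102716672-102733418, plus strand), with a body of 16.7 kb, had 5 sites in the body, of which 3 lay within 1 kb of its own starts. The site at chr9:102717087-102718827 contained 6 of the 13 annotated starts, the principal one included. The others measured 507 bp at exon 2 (chr9:102720037-102720543) and 570 bp in intron 9 (chr9:102731087-102731656). The window held 29 distal sites, and the widest measured 1728 bp just past the 3′ end, at chr9:102733792-102735519. Sites covered 14.5% of the window, at percentile 97.3 of protein-coding genes.

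Of the coactivator genes, Yap1 (chr9:7931999-8004596, minus strand) had 11 sites in a body of 72.6 kb, and Wwtr1 (chr3:57455649-57575910, minus strand) had 19 in 120.3 kb. The medians for coding genes of similar length were 5 and 8. The promoter site of Yap1, chr9:8003137-8005192, contained the principal start, and a further site of 478 bp lay at a non-coding transcript's start in intron 3 (chr9:7965647-7966124). Between these lay 4 distal sites in introns 2 and 3. The widest distal site around Yap1 measured 1790 bp and lay upstream, at chr9:8103167-8104956. Wwtr1 had a single promoter site, chr3:57574925-57576948, which contained both annotated starts. Of its 37 distal sites, 17 lay in the body, and the widest measured 1565 bp downstream of the gene, at chr3:57428404-57429968. The density of sites was higher at Wwtr1 than at Yap1 by number (12.8 against 9.54 per 100 kb), whereas the covered share of the window was similar at 8.39% and 8.15%.

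The 4 Tead genes encode the DNA-binding partners of YAP and TAZ, and the number and place of sites differed between their loci. Tead1 (chr7:112679318-112906807, plus strand) is the longest with 227.5 kb. Its body held 43 sites, at percentile 97.1 among 1821 coding genes of similar length, for which the median was 14. Of these sites 38 were distal, and the widest measured 1926 bp in intron 2, at chr7:112822656-112824581. Its main promoter site, chr7:112678350-112680251, contained the principal start, and sites of 861 bp (chr7:112760434-112761294) and 212 bp (chr7:112840233-112840444) lay within 1 kb of internal starts.

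Tead4 (chr6:128224288-128300823, minus strand) had 14 sites in 76.5 kb, of which 12 were distal. Its promoter site, chr6:128299608-128301242, contained the principal start, and a site of 435 bp in intron 1 (chr6:128275654-128276088) lay 77 bp from the start of a shorter coding transcript. The widest distal site measured 847 bp, at chr6:128318235-128319081, and was the narrowest such maximum outside Lats1.

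Tead2 and Tead3 are short genes of 17.9 and 19.1 kb and differed from each other. Tead2 (chr7:45215753-45233644, plus strand) had a single site in its body, the promoter site at chr7:45215451-45217085. Of the 23 sites in its window 15 lay at starts of other genes and 7 were distal, in a neighbourhood with 15 other coding genes. The widest distal site measured 1256 bp, at chr7:45299649-45300904. Tead3 (chr17:28331671-28350817, minus strand) had 5 sites in its body, its promoter site at chr17:28349602-28351657 and 4 distal ones. Of 37 sites in its window 30 were distal and 6 lay at starts of other genes. The widest distal site measured 1656 bp upstream, at chr17:28419565-28421220.

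Matches to the motif of the TEAD factors, ACATTCC on either strand, were then searched, since YAP and TAZ reach DNA through these factors. RefSeq promoters of 300 bases were given for 7 of the 9 genes, all but Tead1 and Tead4. A match was found in 3 of their 11 promoter sequences, one each for Yap1, Tead3 and Amotl2, against 3.38% of 21263 promoters of coding genes. This search was added after the sequences had been seen. The 3 sequences are shown 5′ to 3′ on the gene's strand with the match in capitals, at chr9:8004547-8004846 (minus), chr17:28350551-28350850 (minus) and chr9:102717554-102717853 (plus).
Yap1: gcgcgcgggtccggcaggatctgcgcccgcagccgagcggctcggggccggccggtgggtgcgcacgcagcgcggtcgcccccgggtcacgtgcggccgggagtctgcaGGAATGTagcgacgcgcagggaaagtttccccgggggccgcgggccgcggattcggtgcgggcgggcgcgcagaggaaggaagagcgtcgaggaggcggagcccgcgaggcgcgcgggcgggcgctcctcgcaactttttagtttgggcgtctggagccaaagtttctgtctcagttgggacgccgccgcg
Tead3: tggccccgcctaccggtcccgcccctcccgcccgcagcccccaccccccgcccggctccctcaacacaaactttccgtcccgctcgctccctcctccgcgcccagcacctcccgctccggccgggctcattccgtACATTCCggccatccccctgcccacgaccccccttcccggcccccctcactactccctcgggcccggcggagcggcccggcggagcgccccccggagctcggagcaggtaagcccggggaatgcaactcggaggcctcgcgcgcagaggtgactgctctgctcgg
Amotl2: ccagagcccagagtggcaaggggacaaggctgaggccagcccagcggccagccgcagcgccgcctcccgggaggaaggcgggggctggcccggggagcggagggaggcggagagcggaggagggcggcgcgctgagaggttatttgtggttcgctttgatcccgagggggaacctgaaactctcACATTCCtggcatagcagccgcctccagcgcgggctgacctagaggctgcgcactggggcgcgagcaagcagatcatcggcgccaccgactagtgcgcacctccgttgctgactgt

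The first base of the match lay at -141 bp from the start base at Yap1, at -115 at Tead3 and at -66 at Amotl2. All 300 bases of each sequence were inside the promoter site described above. At Yap1 the letters ran in the opposite orientation, as GGAATGT.

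In the middle 200 bp of the distal sites, ACATTCC was found in 16 of 224 sites, 7.14% (4.44 to 11.3), against 6.46% of all 127255 distal sites. The share lay near that of the whole list. Of 70 promoter sites in the windows, 1 held ACATTCC in the middle 200 bp, 1.43%, against 3.06% of all promoter sites. Matches were found in 5 of 37 distal sites at Wwtr1, 4 of 29 at Amotl2, 4 of 53 at Tead1, 2 of 20 at Yap1, 1 of 30 at Tead3 and 0 at Tead2 (of 7), Tead4 (of 24), Lats1 (of 1) and Lats2 (of 23), and differences between these small counts were not tested. The motif of AP-1 (TGACTCA or TGAGTCA, which are each other's reverse complement), a factor that shares many enhancers with TEAD, was found in 31 distal sites, 13.8% (9.92 to 19.0), against 16.3% of all. The consensus of CTCF, the insulator protein, was found in 8, or 3.57% (1.82 to 6.89), against 3.06%. Sites with both TEAD and AP-1 matches numbered 2, or 0.893% (0.245 to 3.20), against 0.935%.

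**Figure D5:**
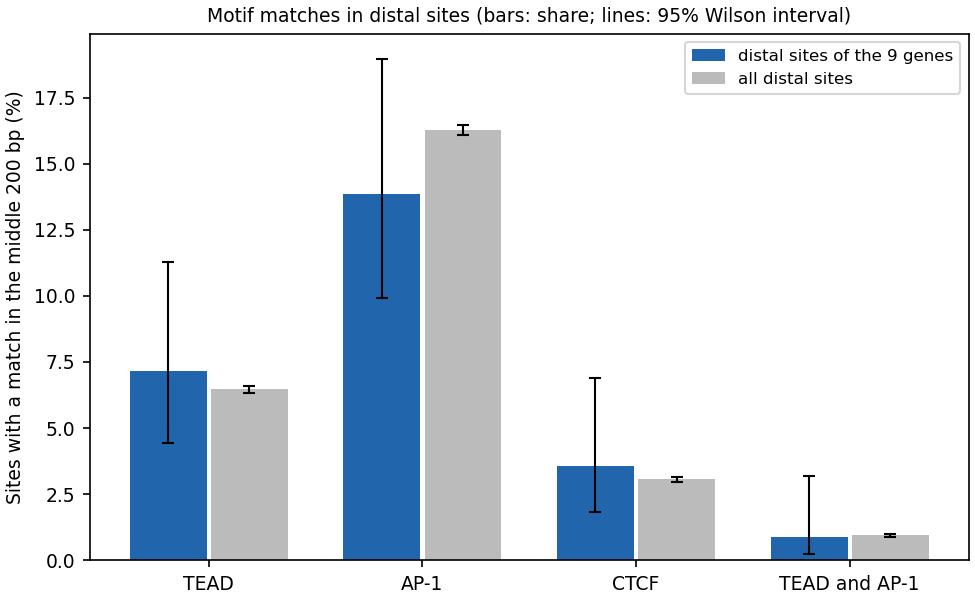
The bars show the percentage of distal sites with a motif match in the middle 200 bp (vertical axis) for the 224 distal sites of the 9 genes (blue) and for all 127255 distal sites (grey), with 95% Wilson intervals. For each motif the interval of the blue bar includes the grey value, for TEAD 4.44 to 11.3 against 6.46%.

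Both distal sites with the pair of motifs are shown on the plus strand with TEAD and AP-1 matches in capitals. The Yap1 sequence is the middle of a site of 890 bp in intron 3, chr9:7967174-7968063, and covers chr9:7967519-7967718. The Amotl2 sequence covers chr9:102673467-102673666, the middle of a site of 1053 bp with its middle at -43106 bp from the 5′ end, and was named after its matches were seen.
Yap1: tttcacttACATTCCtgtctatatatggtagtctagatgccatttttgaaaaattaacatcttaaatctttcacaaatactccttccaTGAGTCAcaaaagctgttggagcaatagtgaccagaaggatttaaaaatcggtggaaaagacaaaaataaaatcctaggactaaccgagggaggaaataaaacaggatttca
Amotl2: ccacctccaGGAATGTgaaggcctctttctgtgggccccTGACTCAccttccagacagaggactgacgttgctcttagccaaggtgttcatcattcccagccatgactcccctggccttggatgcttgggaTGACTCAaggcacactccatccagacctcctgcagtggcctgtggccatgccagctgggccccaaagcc

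Both sequences held 1 TEAD match, with 1 AP-1 match at Yap1 and 2 at Amotl2. At Wwtr1, 1 of the 5 distal sites with a TEAD match had its middle in an exon (exon 3, site of 705 bp at chr3:57501383-57502087), and its middle is shown on the plus strand with the match in capitals, covering chr3:57501636-57501835. It was likewise chosen after its match was seen.
Wwtr1: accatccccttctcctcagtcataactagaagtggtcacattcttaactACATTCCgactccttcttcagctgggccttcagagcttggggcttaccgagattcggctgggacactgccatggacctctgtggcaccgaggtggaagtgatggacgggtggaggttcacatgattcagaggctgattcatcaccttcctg

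A match shows only that these letters occur in the window, and binding of a TEAD factor was not measured.

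The other genes of the pathway were examined from a list of 26, comprising kinases and scaffolds such as Stk3, Stk4, Sav1 and Mob1a, the upstream regulator Nf2, the cadherins Fat4 and Dchs1 and the TEAD cofactors Vgll1 to Vgll4. A promoter site was found at 24 of them, beside 70.8% of all protein-coding genes, and Dchs1 and Vgll1 had none. Vgll1 also had 0 sites in its body and 4 in its window. The widest promoter site of the list, 4063 bp at Fat4, lay at percentile 99.96 of the 15530 protein-coding genes with a promoter site. The median density of the list was 10.4 sites per 100 kb, against 12.8 for the 9 genes and 8.48 for all protein-coding genes.

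All 19 known target genes of YAP, TAZ and TEAD on the list had a promoter site, beside the same 70.8%, including Ccn1 (719 bp) and Ccn2 (2962 bp), which encode matricellular proteins, and Ankrd1 (1064 bp). The widest measured 3160 bp at Asap1, and the median density was 12.0 sites per 100 kb. Rbms3, with 77 sites in its body, and Asap1, with 51, held more than Tead1 did, without regard to gene length. The density per 100 kb of window was 7.24 at Rbms3 and 16.7 at Asap1, against 14.0 at Tead1.

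The fibroblast label was compared with marker genes. Promoter sites were found at 10 of 10 fibroblast markers, with the widest at Pdgfrb (2865 bp), at 3 of 4 endothelial markers (widest at Tek, 1906 bp) and at 2 of 3 pluripotency markers (widest at Pou5f1, 620 bp). All 5 epithelial markers also had one, the widest at Ovol1 (2277 bp). Ptprc, Spi1 and Cd3e, which mark blood cells, the endothelial marker Tie1 and the pluripotency marker Nanog had none. Read beside the 70.8% of all protein-coding genes, the presence of a promoter site did not separate fibroblast from epithelial markers, whereas the named blood markers lacked one.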

How the data were processed

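ATAC-seq was performed by the authors on 10 libraries, 2 replicates in each of 5 groups. According to their methods, reads were trimmed with Trim Galore, aligned with BWA to mm10 (GRCm38.p6), filtered with Samtools following ENCODE, merged over replicates with Picard and used to call narrow peaks with MACS (MACS2 in the submitters' processing notes, without a version). Thresholds, any shift for the Tn5 cut and the rule for joining peaks between libraries are not given in the sources used here, and the extraction protocol in the labels describes chromatin immunoprecipitation, whereas the methods describe ATAC-seq. These choices set the number and edges of sites. The deposited table holds positions only, with no count, signal or score per library. No test was made, the depth is unknown, and comparisons between groups were not possible. Starts were read as counted from 0 and are printed counted from 1.

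Of 153924 listed sites, 242 on scaffolds and patches were left out. Gene bodies and starts came from the comprehensive GENCODE M21 annotation of the same build. A site belonged to a gene when it overlapped the body or 100 kb either side by at least 1 bp. A promoter site overlapped 1 kb either side of any annotated start, and the other sites were called distal. Percentiles of site number, density and coverage are among 21938 protein-coding genes and those of promoter-site width among the 15530 with such a site, and genes of similar length differ by at most a factor of 2. Patch sequences (74) were aligned to their own chromosome with minimap2 2.31-r1302. Promoter sequences are those of RefSeq. Computations used Python 3.11.15, NumPy 2.4.6, pandas 2.3.3, SciPy 1.17.1 and Matplotlib 3.10.9 and were tested on planted sites and motifs.

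All 9 genes were named. Sites were named when they lay within 1 kb of a start of these genes, were the widest distal site of a gene, or lay in a body and held TEAD and AP-1 matches. Of the lists, genes without a promoter site and the one with the widest were named, and a few examples were added after their values were seen. One marker gene is not reported here. The genes, lists and rules were chosen with earlier results of these data known.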

Additional observations from a re-analysis of the deposited data

How the results depend on the processing

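No paired analysis was possible because the positions carry no value for any single library. Of 79 alternative values, 65 stayed close to the reported one and 14 moved. Close meant within a factor of 1.5 for counts and percentiles, or within the 95% interval for shares and medians. High percentiles and the count of 8 of the 9 genes could not rise by that factor, so the number of close values says little about them. With covered bases in place of site number, Wwtr1 went from percentile 82.07 to 68.45 and Tead2 from 67.16 to 81.91, and both counted as close. The 294 sites became 109 in gene bodies only, 460 within 200 kb and 153 when sites below the median width of the list were dropped. The promoter share of 23.8% was 19.0% with a window of 500 bp and 39.5% with 3 kb. With 3 kb, non-promoter sites in exons fell to 2.38% and those in introns to 38.8%. The percentile of Lats1 in site density, 12.1 among all protein-coding genes, was 7.39 among genes of similar length and 3.77 on its own chromosome, a set added after the data were seen. The share of distal sites with a TEAD match was 14.7% in the middle 500 bp, 19.6% over whole sites and 2.68% with the longer ACATTCCA, against 13.1%, 15.5% and 2.51% of all distal sites. With CATTCCA it was 4.91% against 6.37%, below the whole list where ACATTCC was above it. For AP-1 the shares were 26.8% and 30.4%, against 28.4% and 31.0%. A promoter site was found at 8 of the 9 genes in each alternative but the outermost 5′ end, with 7. Leaving out genes with starts in copied sequence, also added later, moved the percentiles of the other 8 genes by little, from 58.97 to 58.59 at Yap1 for example. Only 208 of 21938 genes were left out, so a large move was not possible. The pooled list limits every value to the presence of a site.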
